A study of Mus musculus with 7 samples.

Results

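Described here are 10 cell adhesion genes, 4 cadherins and 6 non-clustered protocadherins, among the 55335 genes of the count tables. They are *Cdh2*, *Cdh4*, *Cdh10*, *Cdh13*, *Pcdh7*, *Pcdh9*, *Pcdh10*, *Pcdh17*, *Pcdh18* and *Pcdh19*. Each was taken by its symbol, which the Gencode mouse annotation on GRCm38 gives for its gene identifier when the version is ignored. The rule itself uses no measured value. All 10 passed the filter on low counts, which left 13305 genes for the tests. The study sequenced polyadenylated RNA of cultured mouse neural stem cells (NSCs) as direct cDNA, that is, long nanopore reads of cDNA that was not amplified. The comparison asks which genes change when *Smchd1*, which encodes a repressor of chromatin, is lost. The 4 wild-type (WT) samples carried normal *Smchd1* and the 3 *Smchd1*-null samples carried the MommeD1 mutation of it. Both groups had the FVB/N background and grew without treatment in the same proliferation medium with the growth factors EGF and bFGF. Batch 1 of the sequencing held WT replicate 2 with *Smchd1*-null replicates 1 and 2, batch 2 held *Smchd1*-null replicate 3 with WT replicates 3 and 4, and WT replicate 1 was run in both. The library kit, the barcoding kit and the flow cell changed with the batch, so these cannot be told apart. The labels do not say whether the replicates came from separate animals, so the p-values measure only the spread between these samples, which may be technical.

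Cadherins are single-pass or membrane-anchored proteins that hold neighbouring cells together through calcium-bound repeats outside the cell. Classical cadherins bind their own kind on the next cell and are tied to actin by catenins, and in the neural tube and the ventricular zone N-cadherin, the product of *Cdh2*, keeps stem cells attached to each other at the apical junctions. Non-clustered protocadherins adhere more weakly, bind no β-catenin, and signal through short motifs in their cytoplasmic tails, and in the brain they are known for cell sorting, axon growth and synapse formation.

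The libraries held between 2.74 and 7.74 M counts, and 3 counts, taken as the floor of detection, were 0.399 to 1.13 CPM, that is, counts per M of the TMM-scaled library size. In WT *Smchd1* was at 63.4 ± 9.09 CPM (SD, n = 4), and in *Smchd1*-null samples at 16.1 ± 2.97 CPM (SD, n = 3), without overlap, and the limma fold change was -2.15 on the log2 scale (SE 0.18, adjusted p = 1.103e-04). The 10 markers of neural stem cells were detected in all 7 libraries, at a summed 8975 to 13770 CPM in WT and 8542 to 10100 CPM in *Smchd1*-null samples. Oligodendrocyte-lineage markers, 5 or 6 of 6 detected, summed to 774 to 929.9 CPM in WT and 814 to 832 CPM in *Smchd1*-null samples, with *Mog* at 0 in 3 libraries. The 5 astrocyte markers summed to 123 to 247 CPM in WT and 99.5 to 168 CPM in *Smchd1*-null samples, with *Gfap* at 0 in *Smchd1*-null replicate 1. The 7 neuron markers summed to 372 to 419 CPM in WT and 361 to 382 CPM in *Smchd1*-null samples. *Map2* alone was at 340 to 362 CPM in WT and 327 to 354 CPM in *Smchd1*-null samples. *Tubb3*, *Rbfox3* and *Stmn2* were at most at 15.1, 5.51 and 1.05 CPM. The 3 ependymal markers summed to 21.7 to 43.3 CPM over both groups with *Tmem212* at 0 throughout. Microglial, endothelial and pericyte or fibroblast markers summed to at most 1.11, 3.93 and 4.29 CPM, with *Tyrobp* at 0 in all 7 libraries. WT replicate 4 had the highest sum for the oligodendrocyte lineage, with *Mbp* at 96.2 CPM and *Sox10* at 41.3 CPM against at most 2.60 and 11.4 CPM in the *Smchd1*-null samples, while *Olig2*, the most abundant marker of that list, was lowest there, at 654 CPM against up to 822 CPM in the other libraries. WT replicate 4 also had the highest sum for neural stem cells, neurons, astrocytes and pericytes or fibroblasts. Of its stem cell sum of 13770 CPM, *Fabp7* made up 9464 CPM. *Sox2*, *Slc1a3*, *Sox9* and *Pax6* were also highest there, while *Nes* (211 CPM) and *Vim* (2186 CPM) were lowest there of all 7 libraries. Of the neuron markers, *Tubb3*, *Dcx*, *Snap25* and *Syt1* were highest in WT replicate 4, with *Dcx* at 36.2 CPM against at most 4.55 CPM in *Smchd1*-null samples. *Map2*, the most abundant neuron marker, was highest in WT replicate 1, and *Rbfox3* and *Stmn2* in WT replicate 3. The samples were bulk cultures, so fewer cells of a type and less RNA per cell cannot be told apart.

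The promoters of both gene pairs whose levels were most alike across the 7 libraries are shown. The choice rests on Pearson's r of log-CPM only. For *Pcdh7* and *Pcdh18* it was 0.87, with only 4 to 22 counts of *Pcdh18* per library. For *Cdh10* and *Pcdh10* it was 0.86, and 0.54 without WT replicate 4. *Cdh2* and *Cdh4* were nearly as close, at 0.85. Promoter windows of 250 bases before and 50 after the start of a transcript, from RefSeq on GRCm38.p6, were matched for 7 of the 10 genes. *Cdh2*, *Cdh4* and *Cdh13* were not among them. Each sequence is written 5′ to 3′ in lower case with every CG dinucleotide in capitals.
Pcdh7 (chr5:57717831-57718130, plus strand): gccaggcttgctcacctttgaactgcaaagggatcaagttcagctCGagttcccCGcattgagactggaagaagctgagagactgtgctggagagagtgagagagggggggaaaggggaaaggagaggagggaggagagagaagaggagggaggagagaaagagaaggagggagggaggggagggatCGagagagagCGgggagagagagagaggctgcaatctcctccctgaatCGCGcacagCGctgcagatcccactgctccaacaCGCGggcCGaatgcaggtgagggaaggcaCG
Pcdh18 (chr3:49757267-49757566, minus strand): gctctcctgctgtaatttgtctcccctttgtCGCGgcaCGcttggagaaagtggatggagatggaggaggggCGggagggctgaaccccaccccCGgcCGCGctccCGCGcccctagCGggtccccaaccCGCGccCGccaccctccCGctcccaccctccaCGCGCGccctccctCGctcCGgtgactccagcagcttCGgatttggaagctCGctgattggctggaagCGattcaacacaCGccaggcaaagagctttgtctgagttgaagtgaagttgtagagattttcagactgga
Pcdh10 (chr3:45378148-45378447, plus strand): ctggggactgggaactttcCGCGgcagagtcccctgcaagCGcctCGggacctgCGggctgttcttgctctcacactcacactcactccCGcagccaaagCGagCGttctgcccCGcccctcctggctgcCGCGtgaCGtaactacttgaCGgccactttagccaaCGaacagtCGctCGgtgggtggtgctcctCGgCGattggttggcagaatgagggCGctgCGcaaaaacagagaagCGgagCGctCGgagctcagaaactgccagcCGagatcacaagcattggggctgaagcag
Cdh10 (chr15:18820079-18820378, plus strand): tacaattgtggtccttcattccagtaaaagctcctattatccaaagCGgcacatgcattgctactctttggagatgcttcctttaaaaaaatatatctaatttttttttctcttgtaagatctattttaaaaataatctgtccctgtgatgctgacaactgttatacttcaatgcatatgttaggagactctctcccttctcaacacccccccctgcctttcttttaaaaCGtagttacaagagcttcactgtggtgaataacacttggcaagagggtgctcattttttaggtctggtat
The *Pcdh7* window held 11 CG dinucleotides, that of *Pcdh18* 23 and that of *Pcdh10* 24, against a median of 7 in 32851 windows of the same length. *Cdh10* stood apart with 2 CG dinucleotides, at percentile 14.1 of all windows, while *Pcdh10* was at percentile 80.0. The window of *Cdh10* begins inside the annotated gene. Over both strands, CCAAT was found in 5 of the 7 genes and in 37.4% of all windows. GGGCGG was found in 4 of the 7 genes and in 35.7% of all windows, and TATAAA in 0 of the 7 genes and 13.6% of all windows. No motif contains another, and a match is a description of the letters only.

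Between the genotypes, none of the 10 genes passed the test. The called genes at an adjusted p under 0.25, limma over 13305 genes, were 1.08% of all genes and 0 of the 10. At 0.05 they were 12 of the 13305 genes and 0 of the 10. *Cdh4*, *Cdh10* and *Pcdh9* had the smallest p-values, and their 95% intervals, all below 0, ended near it. These were 3 of 10 with an unadjusted p under 0.05 and a lower level in *Smchd1*-null samples, against 6.74% of all genes, while edgeR and DESeq2 gave 0 of 10 at that level. In none of the 10 did the *Smchd1*-null samples lie wholly apart from WT, and 3.01% of all genes were wholly lower in the *Smchd1*-null samples. The fold change was below 0 for 7 genes and above 0 for 3, with a median of -0.11 on the log2 scale against 0.005 for all genes and -0.10 for the 4558 genes within the length range of the 10. With the batch as a covariate the median of the 10 was 0.16, with each library's trend of level with gene length removed it was 0.03, and without *Smchd1*-null replicate 2 it was 0.02, so its sign changed with the treatment of batch and length and with a single library. Without WT replicate 2 or without *Smchd1*-null replicate 3, *Cdh4*, *Cdh10* and *Pcdh9* passed 0.25 and were lower in *Smchd1*-null samples. These were 3 of 9 genes tested, as *Pcdh18* was below the filter, beside 2924 of 12891 and 3153 of 13395 genes. Leaving out WT replicate 2 left no WT library sequenced in batch 1 alone. Leaving out *Smchd1*-null replicate 3 left no *Smchd1*-null library in batch 2. Genotype and batch could thus be told apart only in part in these fits. In every other fit between the genotypes none of the 10 passed. With the batch as a covariate these 3 genes were at -0.20, -0.34 and -0.18. With the length trend removed they were at -0.165, -0.44 and -0.45.

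**Figure D1:**
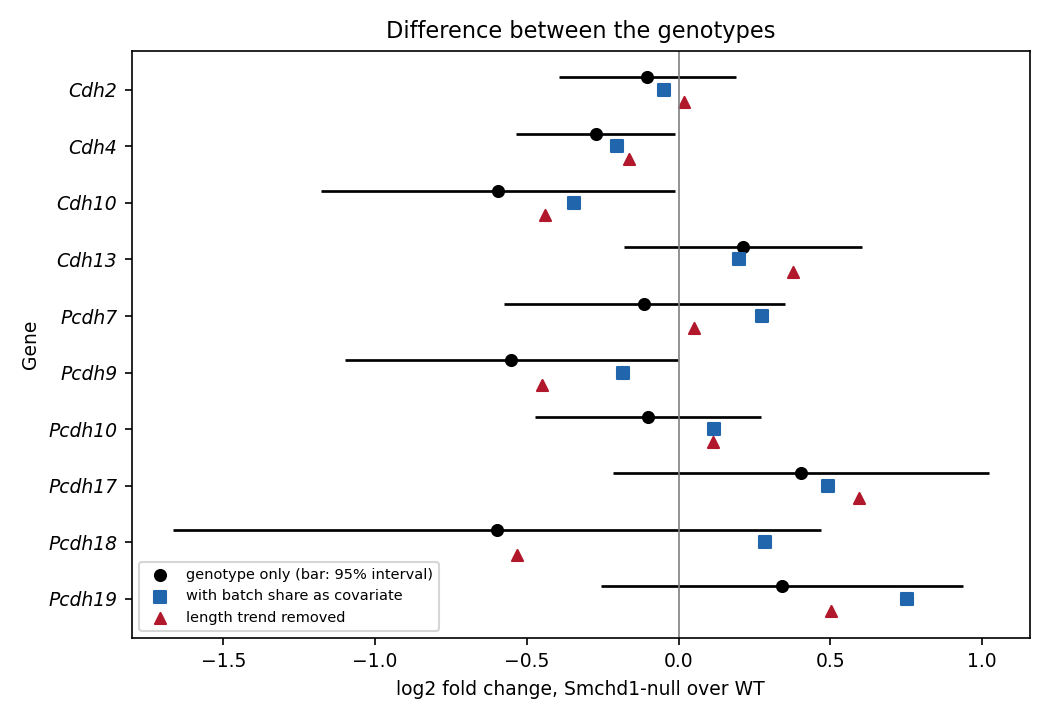
Log2 fold change of *Smchd1*-null over WT samples (horizontal axis) for each of the 10 genes (vertical axis). Black points with 95% intervals are the limma fit with genotype only. Blue squares are the fit with the batch share as a covariate, and red triangles the fit after the trend of level with gene length was removed. *Cdh4*, *Cdh10* and *Pcdh9* lie below 0 in all 3 fits, while *Cdh13*, *Pcdh17* and *Pcdh19* lie above 0 in all 3.

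*Cdh2* and *Cdh4* encode the classical type I cadherins N-cadherin and R-cadherin. *Cdh2* (chr18:16588877-16809246, minus strand, 3 annotated transcripts) was at 131, 102, 104 and 81.1 CPM in WT replicates 1 to 4 and at 96.5, 102 and 103 CPM in *Smchd1*-null replicates 1 to 3. The *Smchd1*-null samples were close together, with a coefficient of variation of 3.43%, inside the WT range, where it was 19.5%. Its log2 fold change was -0.10 (95% interval -0.40 to 0.19, adjusted p = 0.7375, limma). *Cdh4* (chr2:179442431-179899373, plus strand, 6 transcripts) was at 186, 155, 164 and 131 CPM in WT and at 131, 136 and 146 CPM in *Smchd1*-null samples. WT replicates 1 to 3 were above all *Smchd1*-null samples and WT replicate 4 was level with the lowest of them. The log2 fold change of *Cdh4* was -0.27 with an SE of 0.12 (95% interval -0.54 to -0.01, adjusted p = 0.3471). Without WT replicate 2 it was -0.29 (adjusted p = 0.2282), and without *Smchd1*-null replicate 3 it was -0.30 (adjusted p = 0.1925). With any other library left out, *Cdh4* was between -0.33 (without WT replicate 4) and -0.20 (without WT replicate 1). The adjusted p was then at least 0.4219 (without WT replicate 4).

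*Cdh10* encodes a type II classical cadherin, a group known for sorting neurons into layers and nuclei. *Cdh10* (chr15:18818947-19014236, plus strand, 6 transcripts) was at 14.6, 12.2, 11.5 and 27.4 CPM in WT and at 7.51, 9.72 and 14.1 CPM in *Smchd1*-null samples. WT replicate 4 was well above the other libraries, and the remaining WT values overlapped *Smchd1*-null replicate 3. Its log2 fold change was -0.59 with an SE of 0.27 (95% interval -1.18 to -0.01, adjusted p = 0.3504), and -0.67 and -0.69 without WT replicate 2 and *Smchd1*-null replicate 3 (adjusted p = 0.2139 and 0.1645). With any other library left out, *Cdh10* was between -0.749 (without WT replicate 3) and -0.365 (without *Smchd1*-null replicate 1). The adjusted p was then at least 0.5212 (without WT replicate 4). *Cdh13* encodes T-cadherin, which has cadherin repeats but is held by a lipid (GPI) anchor in place of a membrane span and cytoplasmic tail, and so is not a classical cadherin. *Cdh13* (chr8:118283733-119324921, plus strand, 8 transcripts) was at 79.4, 67.5, 72.4 and 139 CPM in WT and at 86.3, 108 and 73.0 CPM in *Smchd1*-null samples. WT replicate 4 was again the highest library and the genotypes overlapped. The group means were 89.5 ± 33.3 CPM (SD, n = 4) and 89.1 ± 17.7 CPM (SD, n = 3), and the weighted fit gave a log2 fold change of 0.21 (95% interval -0.18 to 0.60, adjusted p = 0.5943).

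*Pcdh7* and *Pcdh9* belong to the delta-1 protocadherins, whose tails carry a motif that binds protein phosphatase 1. *Pcdh7* (chr5:57717967-58133230, plus strand, 7 transcripts) was at 22.9, 16.4, 24.4 and 20.8 CPM in WT and at 21.0, 17.0 and 32.2 CPM in *Smchd1*-null samples. In both genotypes the batch 1 libraries held the lowest value and a batch 2 library the highest. The log2 fold change was -0.11 (95% interval -0.58 to 0.35, adjusted p = 0.8245), while the unweighted means, 21.1 ± 3.47 CPM (SD, n = 4) and 23.4 ± 7.89 CPM (SD, n = 3), had the other order. An overlapping transcript on the opposite strand, *4932441J04Rik*, shares up to 2235 exonic bases with *Pcdh7* and had 0 to 5 counts per library. *Pcdh9* (chr14:93013410-93890679, minus strand, 8 transcripts) was at 27.1, 12.0, 18.4 and 33.4 CPM in WT and at 15.4, 12.9 and 17.5 CPM in *Smchd1*-null samples. WT spanned from the lowest to the highest of the 7 libraries, and 3 of 4 WT values were above all *Smchd1*-null values. The log2 fold change was -0.55 with an SE of 0.26 (95% interval -1.10 to -0.003, adjusted p = 0.3586). Leaving out WT replicate 2, the lowest library, gave -0.75 (adjusted p = 0.11), and leaving out *Smchd1*-null replicate 3 gave -0.66 (adjusted p = 0.1609). In both of these fits genotype and batch were told apart only in part. With any other library left out, *Pcdh9* was between -0.62 (without WT replicate 3) and -0.32 (without *Smchd1*-null replicate 2). The adjusted p was then at least 0.5225 (without WT replicate 4).

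*Pcdh10*, *Pcdh17*, *Pcdh18* and *Pcdh19* are delta-2 protocadherins, most of which recruit the actin-regulating WAVE complex through their tails. *Pcdh10* (chr3:45378398-45435623, plus strand, 5 transcripts) was at 70.3, 54.0, 59.2 and 108 CPM in WT and at 60.1, 58.8 and 80.3 CPM in *Smchd1*-null samples. WT replicate 4 was the highest and WT replicate 2 the lowest library, with all *Smchd1*-null samples between them. The log2 fold change was -0.10 (95% interval -0.47 to 0.27, adjusted p = 0.8031). Its antisense neighbour *1700027H10Rik*, which overlaps it by up to 154 exonic bases, had 0 to 4 counts per library. *Pcdh17* (chr14:84443563-84539002, plus strand, 2 transcripts), known for presynaptic assembly in corticobasal ganglia circuits, was at 7.81, 11.8, 10.7 and 29.0 CPM in WT and at 16.1, 14.1 and 20.8 CPM in *Smchd1*-null samples. The 3 *Smchd1*-null samples were above WT replicates 1 to 3 and below WT replicate 4, and WT had a coefficient of variation of 64.6%. The log2 fold change was 0.40 (95% interval -0.22 to 1.02, adjusted p = 0.5251).

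*Pcdh18* (chr3:49743296-49757325, minus strand, 5 transcripts) had the lowest level of the 10, with 73 counts in all 7 libraries. It was at 1.95, 1.55, 2.36 and 2.74 CPM in WT and at 1.5, 0.93 and 4.76 CPM in *Smchd1*-null samples, from 4 counts in *Smchd1*-null replicate 1 to 22 in *Smchd1*-null replicate 3. The *Smchd1*-null samples lay on both sides of WT, with the batch 1 libraries below and the batch 2 library above, and the log2 fold change was -0.60 with a 95% interval of -1.67 to 0.47 (adjusted p = 0.5815). The unweighted means, 2.15 ± 0.51 CPM (SD, n = 4) and 2.40 ± 2.07 CPM (SD, n = 3), had the other order. *Pcdh19* (chrX:133582860-133688987, minus strand, 5 transcripts), mutated in a form of epilepsy that is linked to the X chromosome, was at 10.01, 5.11, 7.08 and 9.95 CPM in WT and at 10.9, 8.52 and 14.7 CPM in *Smchd1*-null samples. WT replicates 2 and 3 were below all *Smchd1*-null samples, and WT replicates 1 and 4 were between *Smchd1*-null replicates 2 and 1. The log2 fold change was 0.34 (95% interval -0.25 to 0.94, adjusted p = 0.5737), and 0.75 with the batch share as a covariate (SE 0.24, adjusted p = 0.3888).

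**Figure D2:**
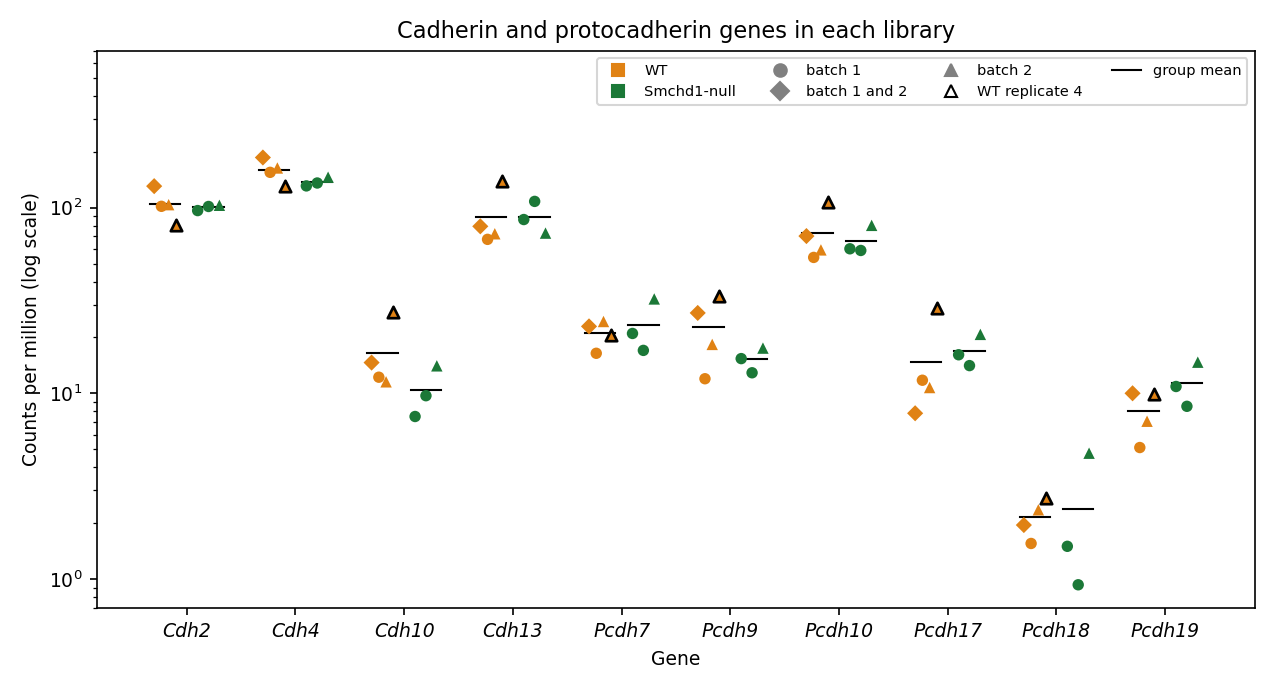
CPM on a log scale (vertical axis) of the 10 genes (horizontal axis) in each of the 7 libraries, WT in orange and *Smchd1*-null in green, with the batch as the shape of the point, a black line at each group mean and WT replicate 4 outlined. The genotypes overlap for every gene, and WT replicate 4 is the highest library for *Cdh10*, *Cdh13*, *Pcdh9*, *Pcdh10* and *Pcdh17*.

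Per length, the cadherins *Cdh4* and *Cdh2* were the most abundant of the 10 genes. The paper states that unfragmented long reads should in theory show no gene length bias, and division by length lowers long genes. In mean CPM of WT, *Cdh4* (159) and *Cdh2* (104) were also highest. Part of the order was otherwise in CPM. *Cdh13* (139) was above *Cdh4* (131) in WT replicate 4, and *Pcdh10* (80.3) above *Cdh13* (73.0) in *Smchd1*-null replicate 3. In WT, *Cdh4* was at 21.9 ± 3.15 CPM per kilobase of deposited gene length, *Cdh2* at 12.9 ± 2.52, *Cdh13* at 7.97 ± 2.96 and *Pcdh10* at 4.58 ± 1.53 (SD, n = 4). *Pcdh9* followed at 3.35, *Pcdh7* at 1.99, *Cdh10* at 1.64, *Pcdh17* at 1.14, *Pcdh19* at 0.77 and *Pcdh18* at 0.40 CPM per kilobase. Of the neighbours in this order only *Cdh4* and *Cdh2* did not overlap between WT libraries. Genes can also be compared inside each library, so overlapping ranges do not show that neighbours have equal levels. Within each library, *Cdh13* was above *Pcdh10*, *Pcdh10* above *Pcdh9* and *Pcdh19* above *Pcdh18* in 7 of 7, by ratios of 1.28 to 2.60, 1.11 to 1.96 and 1.54 to 4.69 per length. In the *Smchd1*-null samples the ranges per length of *Cdh4*, *Cdh2*, *Cdh13* and *Pcdh10* were separate, with means of 18.9, 12.4, 7.93 and 4.18 CPM per kilobase. In CPM the range of *Cdh13* overlapped those of *Cdh2* and *Pcdh10*. *Cdh4* was above *Cdh2* in 7 of 7 libraries, by a ratio of 1.49 to 1.80 per length. In CPM per kilobase the 10 genes covered most of the range of the tested genes, from percentile 79.1 in WT for *Cdh4* to percentile 2.3 for *Pcdh18*. Their median length of 10257.5 bases was above the 4160 bases of all tested genes.

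More of the 10 genes passed between the sequencing batches than between the genotypes. With genotype in the fit, 7 of the 10 genes passed an adjusted p under 0.25 between batch 2 and batch 1, all higher in batch 2, and these 7 were *Cdh10* and all 6 protocadherins. Of all tested genes 18.9% were higher in batch 2 at this level, and of the 4558 genes within the length range of the 10 it was 27.6%. Across genes the batch difference was larger for longer genes, with a Spearman rho of 0.35 over 13305 genes, which are not independent replicates. *Pcdh7* was higher in batch 2 by 0.69 on the log2 scale (SE 0.16, adjusted p = 0.01804), and *Pcdh18* by 1.48 (SE 0.42, adjusted p = 0.03349). Both genes also passed 0.25 with edgeR and without sample weights. *Pcdh10* was higher by 0.43 (adjusted p = 0.0616), *Pcdh19* by 0.65 (adjusted p = 0.07749), *Pcdh9* by 0.59 (adjusted p = 0.1052), *Cdh10* by 0.53 (adjusted p = 0.1698) and *Pcdh17* by 0.45 (adjusted p = 0.2351). *Cdh2* and *Cdh4* differed by 0.01 (95% interval -0.25 to 0.27) and 0.07 (95% interval -0.16 to 0.31), and *Cdh13* by -0.08 (95% interval -0.47 to 0.32). The ranges of the libraries sequenced in 1 batch only did not overlap for *Pcdh9*, at 13.4 ± 1.76 CPM in batch 1 and 23.1 ± 8.96 CPM in batch 2, and for *Pcdh18*, at 1.33 ± 0.35 and 3.29 ± 1.29 CPM (SD, n = 3 each). Of all tested genes 15.3% were higher in batch 2 without overlap.

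The batch result changed with the processing and with single libraries. After the trend with gene length was removed, *Pcdh7*, *Pcdh9*, *Pcdh18* and *Pcdh19* passed 0.25, with differences of 0.52, 0.50, 1.44 and 0.49, beside 17.2% of all genes higher in batch 2, while *Pcdh10* was at 0.18 (adjusted p = 0.4257). *Pcdh7*, *Pcdh10*, *Pcdh18* and *Pcdh19* passed without sample weights, beside 8.54% of all genes, and *Pcdh7*, *Pcdh10* and *Pcdh18* with edgeR, beside 8.46%. Without WT replicate 4, *Pcdh7*, *Pcdh9*, *Pcdh10* and *Pcdh19* passed, among 9 genes since *Pcdh18* was then below the filter, beside 19.6% of all genes. With the length trend removed as well, *Pcdh7* and *Pcdh19* were higher in batch 2, beside 18.5% of all genes, and *Cdh13* was at -0.42 (adjusted p = 0.0701), which no other batch fit called. Leaving out WT replicate 2 left no WT library sequenced in batch 1 alone, and leaving out *Smchd1*-null replicate 3 left no *Smchd1*-null library in batch 2. In these fits 0 of 9 genes passed, with 0.0543% and 0.0373% of all genes higher in batch 2.

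**Figure D3:**
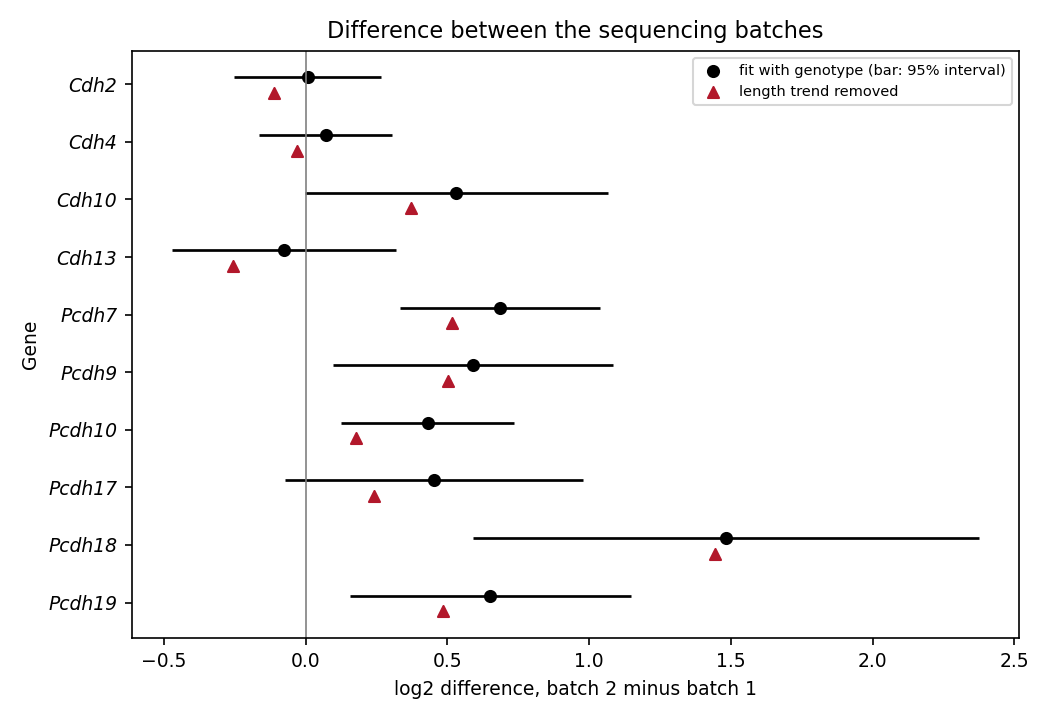
Log2 difference between batch 2 and batch 1 (horizontal axis) for each of the 10 genes (vertical axis), from the limma fit with genotype and batch share as black points with 95% intervals, and after removal of the trend with gene length as red triangles. *Cdh2* and *Cdh4* lie near 0, and *Cdh13* lies near 0 in the first fit and at -0.26 in the second. *Cdh10* and the 6 protocadherins lie to the right of 0 in both.

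Within batch 1, *Smchd1*-null minus WT in mean log-CPM was -0.04 for *Cdh2*, -0.22 for *Cdh4* and -0.49 for *Cdh10*, and in batch 2 it was 0.17, -0.005 and -0.33. The *Cdh10* mean was thus below WT in both batches. For *Cdh13* it was 0.51 in batch 1 and -0.46 in batch 2. For *Pcdh7* both batches gave a higher mean in *Smchd1*-null samples, 0.20 and 0.51, and for *Pcdh19* 0.86 and 0.78. *Pcdh10* differed by 0.14 and 0.01 and *Pcdh17* by 0.35 and 0.23. *Pcdh9* and *Pcdh18* changed sign between the batches, as *Cdh2* and *Cdh13* did, with 0.23 and -0.49 for *Pcdh9* and -0.29 and 0.81 for *Pcdh18*. Each batch held at most 2 libraries of a genotype, so these are values without a test of their own. The interaction of genotype and batch, fitted with limma without WT replicate 1, passed 0.25 in 0 of 13305 genes, with 199 genes and 1 of the 10, *Cdh13*, at an unadjusted p under 0.05.

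WT replicate 4 was the highest of the 7 libraries for 5 of the 10 genes, *Cdh10*, *Cdh13*, *Pcdh9*, *Pcdh10* and *Pcdh17*, and for 22.9% of all tested genes. *Smchd1*-null replicate 3 was the highest for *Pcdh7*, *Pcdh18* and *Pcdh19*, and for 9.52% of all tested genes, and WT replicate 1 for *Cdh2* and *Cdh4*, and for 15.6%. The 10 genes together made up 437 CPM in WT replicate 2 and 582 CPM in WT replicate 4. The marker sums of neural stem cells, neurons, astrocytes, the oligodendrocyte lineage and pericytes or fibroblasts were also highest in WT replicate 4. The markers *Olig2*, *Nes* and *Vim* were lowest there. The part of these sums in the levels of the 5 genes highest in WT replicate 4 was not tested. Without WT replicate 4, the log2 fold change of *Cdh10* was -0.43, that of *Cdh13* 0.34, that of *Pcdh9* -0.43, that of *Pcdh10* 0.01 and that of *Pcdh17* 0.65, and none passed 0.25.

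Across the 7 libraries, the patterns of the genes were compared by Pearson's r of log-CPM, given as a description of libraries that share their depth and batch. The closest pair was *Pcdh7* and *Pcdh18* (r = 0.87), whose promoters are printed, and r was 0.92 without WT replicate 4 (Spearman rho 0.64 over all 7). *Smchd1*-null replicate 3 was the highest library for both genes, and r without it was not computed. *Pcdh18* had only 4 to 22 counts per library. *Cdh10* and *Pcdh10*, the second closest pair, had r = 0.86, which went to 0.54 without WT replicate 4. *Cdh2* and *Cdh4*, the N- and R-cadherin genes, had r = 0.85 and had 0.87 without that library (rho 0.93 over all 7). *Pcdh9* was most like *Pcdh10* (r = 0.83, 0.62 without WT replicate 4), *Pcdh17* was most like *Pcdh10* (0.70, then 0.28), and *Cdh13* was most like *Pcdh10* (0.63, then -0.12). *Pcdh19* was most like *Pcdh7* (0.72, then 0.74). Other pairs with *Pcdh10* had a higher r without WT replicate 4, from 0.41 to 0.86 with *Pcdh7*, from 0.57 to 0.86 with *Pcdh19* and from 0.63 to 0.78 with *Pcdh18*. *Pcdh17* ran opposite to *Cdh2* and *Cdh4*, with r of -0.87 and -0.82, and -0.74 and -0.82 without WT replicate 4.

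**Figure D4:**
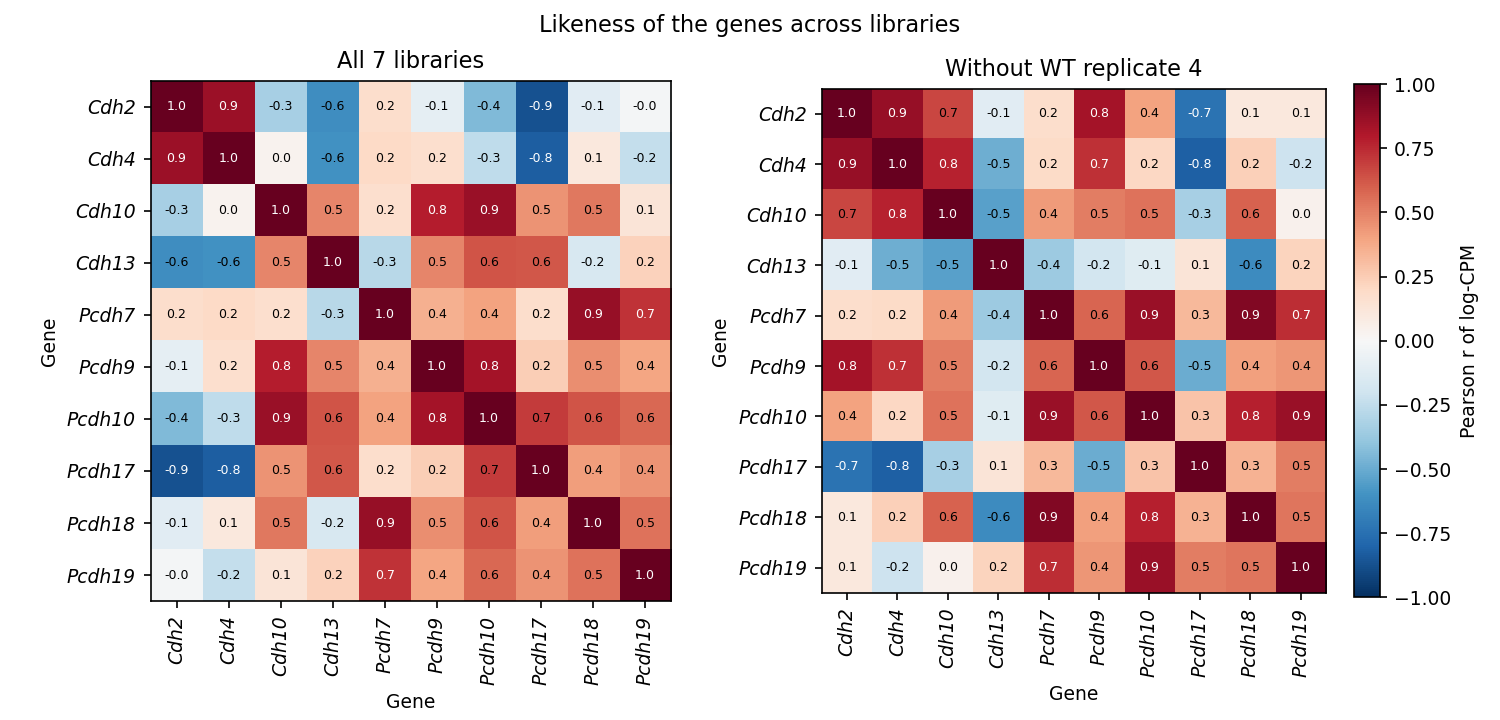
Pearson's r of log-CPM between the 10 genes (both axes list the genes, the colour gives r from -1 to 1), over all 7 libraries on the left and over 6 without WT replicate 4 on the right. The pairs of *Pcdh7* with *Pcdh18* and with *Pcdh19* and the pair *Cdh2* and *Cdh4* are high in both panels, while the values of *Cdh13* with *Pcdh10* and *Pcdh17* fall toward 0 on the right.

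Of 78 other genes of the pathway, 50 were tested and 1 of the 50 passed 0.25 between the genotypes, against 1.08% of all genes. This was *Cyfip2*, which encodes a subunit of the WAVE complex that delta-2 protocadherins recruit. *Cyfip2* was at 49.8, 44.2, 36.7 and 77.0 CPM in WT and at 16.5, 23.4 and 29.9 CPM in *Smchd1*-null samples. All *Smchd1*-null values were below all WT values, and the level fell by 1.09 on the log2 scale (SE 0.22, adjusted p = 0.1262). *Cyfip2* was lower in all 21 alternatives and passed in 14 of them, with adjusted p from 0.02672 (DESeq2) to 1. It did not pass with edgeR (adjusted p = 0.4683), without sample weights (0.5564), with all genes of at least 1 count (0.4325) or with the batch share and without WT replicate 1 (0.3566), nor without WT replicate 1 (0.4845), *Smchd1*-null replicate 1 (0.9964) or *Smchd1*-null replicate 2 (adjusted p = 1). In the list of WAVE subunits and phosphatase partners, 12 of 12 genes were tested, 1 passed, 11 had a fold change below 0 and the median was -0.26. Of all 13305 tested genes 6568 were below 0, with a median of 0.005. Longer genes had lower genotype fold changes, with a Spearman rho of -0.38 over 13305 genes, which are not independent replicates. The part of length in the fold changes of this list and of the lists below was not tested.

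In the other lists no gene passed. Of the catenins and junction linkers 10 of 11 were tested, with 7 below 0 and a median of -0.25. *Ctnna1* encodes an α-catenin, a link of cadherins to actin. *Ctnna1* had 168 ± 23.4 CPM (SD, n = 4) in WT against 132 ± 18.5 CPM (SD, n = 3) in *Smchd1*-null samples, with an adjusted p of 0.2747. *Ctnna2*, another α-catenin gene, went the other way, with a log2 fold change of 0.69 (adjusted p = 0.3575). β-catenin (*Ctnnb1*) had a log2 fold change of -0.78 (adjusted p = 0.3248) and δ-catenin (*Ctnnd2*) of 0.08 (adjusted p = 0.7875). Only 6 of the other 15 classical cadherins passed the filter, with 5 below 0 and a median of -0.31. *Cdh20*, at 75.4 ± 18.2 and 69.3 ± 4.78 CPM, and *Cdh22*, at 23.6 ± 6.58 and 25.9 ± 5.00 CPM, had the highest levels, and *Cdh24* a fold change of -0.52 (adjusted p = 0.3781). E-cadherin (*Cdh1*) had 5 counts in all libraries together and VE-cadherin (*Cdh5*) also 5. Of the other 6 non-clustered protocadherins 3 were tested, with 3 below 0 and a median of -0.19, and *Pcdh11x* and *Pcdh1* had fold changes of -0.19 and -0.15. The atypical and giant cadherins had 9 of 21 tested and a median of -0.11, with *Clstn1* at 124 and *Fat1* at 101 CPM in WT. *Celsr3* was at 1.62 (adjusted p = 0.297) and *Celsr1* at -0.92 (adjusted p = 0.3275) on the log2 scale. *Celsr3* had only 66 counts in all libraries together. It was at 1.4 ± 1.41 CPM (SD, n = 4) in WT, close to the floor, and at 2.70 ± 0.94 CPM (SD, n = 3) in *Smchd1*-null samples. The 8 proteases that cut cadherins had a median of -0.05, with *Adam9* at -0.40 (adjusted p = 0.3232) and *Adam10*, the main sheddase of N-cadherin, at -0.27 (adjusted p = 0.3904). Among 5 transcription factors of the cadherin switch, *Snai1*, *Snai2* and *Twist1* were below the filter, and *Zeb1* and *Zeb2* had fold changes of -0.21 (adjusted p = 0.4191) and -0.48 (adjusted p = 0.3141).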

How the data were processed

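Direct-cDNA nanopore reads of mouse NSCs from 4 WT and 3 *Smchd1*-null samples were analysed from 1 gene-level table per sample. The deposited values are whole-number counts per gene, not normalised, with a length per gene. Per the study's methods and the submitters' processing notes, the authors base-called reads with Guppy, aligned them to mm10 (minimap2 2.17) and assigned the primary alignments to genes of Gencode M23 (GRCm38.p6) in the long-read mode of featureCounts. WT replicate 1 is the authors' sum over its runs in both batches. Counting was not stated to use strand, so reads of overlapping antisense genes cannot be told apart, and those of near-identical copies are uncertain. The file columns hold no comparisons of the authors.

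Symbols and 1-based coordinates came from Gencode M21 (GRCm38): 55154 of 55335 identifiers matched without version. Of the transcripts overlapping these genes on the opposite strand, *Gm26851* at *Pcdh19* was not analysed here. Genes were filtered with filterByExpr and scaled by TMM (edgeR 4.0.16). The test was limma 3.58.1 (R 4.3.3) voomWithQualityWeights with genotype as the only term on all 7 samples, two-sided, with Benjamini-Hochberg adjustment over 13305 genes, and thresholds of 0.25 and 0.05. Adjusted p-values come from this test unless a tool is named. The fitted sample weights ranged from 0.447 (WT replicate 4) to 2.03 (*Smchd1*-null replicate 1). The batch fit added the batch share (0.5 for WT replicate 1, which was in both). Log-CPM used a prior count of 2, and intervals are 95%. No pair of libraries of the same genotype agreed within sampling noise.

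The fits were repeated with unweighted voom, DESeq2 1.42.0, the quasi-likelihood test of edgeR, other scalings and filters, the batch share, the replicate number as a block, removal of each library's lowess trend with gene length (span 0.3), thinning and leaving out each replicate. The interaction of genotype and batch, the combination of length removal with leaving out WT replicate 4, and the alternatives for *Cyfip2* and for single batch differences were added after seeing the data. The scripts were tested on simulated counts. A cell type marker is not reported here and was left out of its sum. All 10 genes, *Smchd1* and, from each list, up to 5 genes passing 0.25 or, with none, the 2 highest and the 2 of smallest p were named. *Cdh1*, *Cdh5*, *Snai1*, *Snai2*, *Twist1* and *Ctnna2* were named after their values were seen. The genes and lists were chosen with earlier results of these data known.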

Additional observations from a re-analysis of the deposited data

Results flagged for a closer look

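*Pcdh9* and *Pcdh18* were picked out because every *Smchd1*-null library lay on one side of WT in batch 1 and on the other side in batch 2. The difference of *Smchd1*-null minus WT in mean log-CPM was 0.226 for *Pcdh9* in batch 1 and -0.49 in batch 2, and for *Pcdh18* it was -0.293 in batch 1 and 0.805 in batch 2. Each batch held 1 or 2 libraries of a genotype, leaving WT replicate 1 aside. The share of all genes with this pattern was not counted, so it does not set *Pcdh9* and *Pcdh18* apart from other genes. Tested as an interaction with limma, the difference between the batches was -0.48 (SE 0.58) for *Pcdh9* and 1.36 (SE 0.97) for *Pcdh18*, both with an adjusted p of 1. Among the 4 WT values of each of the 10 genes, 0 highest or lowest values stood apart by Dixon's criterion.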

How the results depend on the processing

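The count of the 10 genes called between genotypes at 0.25 was 0 to 3 over the 7 fits leaving out 1 replicate each and 0 in the other 14 alternatives, and at 0.05 it was 0 in all 21. For all genes, calls at 0.25 and 0.05, 144 and 12, were 8 and 1 with edgeR, 32 at 0.25 with DESeq2, 10 and 1 without sample weights, 22 and 2 with all genes of at least 1 count, 346 at 0.25 with at least 10 counts in every sample, 74 and 19 with the batch share, 31 and 5 with it and without WT replicate 1, 7 at 0.05 with the length trend removed, 89 and 6 after thinning, and 1 to 3153 and 1 to 161 leaving out 1 replicate. The pathway count of 1 became 0 with edgeR, without weights, with all genes of at least 1 count, and with the batch share without WT replicate 1, 2 with at least 10 counts, and 0 to 19 leaving out 1 replicate. The replicate numbers were not shown to pair the samples, with r of -0.04, 0.36 and 0.09 between same-numbered deviations. The replicate block gave 23 genes at 0.05 and 2 pathway genes, and 35 and 3 with the length trend removed as well. The batch count of 7 became 4 without weights, 3 with edgeR, 4 with the length trend removed, 3 with that and without WT replicate 4 (*Cdh13* lower in batch 2, *Pcdh7* and *Pcdh19* higher), and 0 to 6 leaving out 1 replicate.

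*Cdh4*, *Cdh10* and *Pcdh9* stayed below 0, and *Pcdh17* and *Pcdh19* above 0, in all 21 alternatives. In the order edgeR, DESeq2, batch share, batch share without WT replicate 1, replicate block, replicate block with length removed, and batch share with length removed, *Pcdh7* turned to 0.148, 0.148, 0.275, 0.328, 0.156, 0.225 and 0.327, and *Pcdh18* to 0.124, 0.146, 0.285, 0.338, 0.153, 0.196 and 0.325. *Pcdh10* turned to 0.116, 0.133, 0.161, 0.249 and 0.17 in the last 5 of these. *Pcdh7* was also at 0.091 without weights and at 0.05 with all genes of at least 1 count. With the length trend removed, *Cdh2*, *Pcdh7* and *Pcdh10* were at 0.018, 0.049 and 0.112. *Cdh2* was at 0.022 with the batch share without WT replicate 1, and *Cdh13* at -0.008 with edgeR and with DESeq2. Leaving out 1 replicate gave ranges of -0.177 to 0.015 for *Cdh2*, -0.03 to 0.335 for *Cdh13*, -0.278 to 0.318 for *Pcdh7*, -0.192 to 0.072 for *Pcdh10* and -0.629 to 0.517 for *Pcdh18*. The cause was not tested for any of these. *Pcdh18* had 4 to 22 counts per library and was below the filter in 6 alternatives.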
